A study of Mus musculus with 18 samples.

Results

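In brain tissue of mice without Ppt1 (palmitoyl-protein thioesterase 1), genes of reactive astrocytes and of activated microglia climbed further between 3 and 5 months of age. Other patterns stood beside this. Some genes, among them Sgk1, Hspa5, Per2 and Homer1, lay below the wild type at 3 months and rose to about its level by 5 months. Homer1 did so at 1 of its 6 tested probe sets, and the brightest other probe set of Per2 did not pass. For Sgk1 the wild-type arrays were also lower at 5 months than at 3. Of these named genes Homer1 alone passed in a fit with a measure of RNA quality as covariate. Most of the lower probe sets belonged to genes with another, brighter probe set that did not pass. The comparison set the 3 arrays of knockout mice aged 5 months against the 3 of knockout mice aged 3 months, chosen by genotype and age in the sample labels, which is 6 of the 18 arrays of the series. Wild-type arrays of 3 and 5 months (3 each) gave the change over the same interval as context. Each of these 4 groups held 1 male and 2 females. The labels give no strain, no allele and no treatment, they describe the tissue as both brain and cochlea, and they do not say whether the arrays of a group came from separate mice. The p-values therefore measure the spread between these arrays, which may be partly technical.

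The missing enzyme, palmitoyl-protein thioesterase, works in the lysosome, where it takes palmitate off proteins that are being degraded. Without it, undegraded material builds up in lysosomes and nerve cells are lost, as in the infantile form of neuronal ceroid lipofuscinosis. Astrocytes answer injury with intermediate filaments and secreted protease inhibitors, and microglia, the macrophages of the brain, answer it with lysosomal, lipid-handling and complement genes.

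Ppt1 itself checked the labels. Its brightest probe set gave signals of 9.78, 13.1 and 2.36 in the 3-month knockouts and 12.8, 0.879 and 18.5 in the 5-month knockouts, against 543 to 629 in the 6 wild-type arrays, and its change between the knockout ages was 0.09 ± 0.21 on the log2 scale (adjusted p 0.887). Array medians lay between 43.3 and 46.1, and array values of Xist and Y-linked genes matched the labelled sex on 12 of 12 arrays. Neuronal (Snap25, Gad1), astrocyte, oligodendrocyte and cerebellar (Pcp2, Gabra6) markers were all measured. Of 5 markers of the cochlea only Coch was bright enough to test, and of 5 T and B cell markers none was. The summed signal of 5 astrocyte markers was 11567 to 11933 in the 3-month knockouts and 15049 to 16456 in the 5-month knockouts. That of 5 microglia markers was 2797 to 3032 and then 3460 to 3705, and that of 5 neuronal markers was 19169 to 20097 and then 18815 to 19766. The microglia markers did not move alike. Aif1 read 146, 147 and 149 and then 138, 127 and 143, a log2 change of -0.11 ± 0.16, and Cx3cr1 changed by -0.01 ± 0.20. Csf1r, C1qa and Tyrobp changed by 0.12 ± 0.06, 0.47 ± 0.11 and 0.61 ± 0.09. These are bulk values, in which more cells of a type and more RNA per cell cannot be told apart. A sign of RNA quality moved with age in the knockout. The ratio of the 5-prime to the 3-prime control probe set was 0.507 to 0.542 for actin at 3 months and 0.389 to 0.473 at 5 months, and 0.320 to 0.367 and then 0.198 to 0.247 for pyruvate carboxylase. For Gapdh it averaged 1.37 and then 1.24. None of the 3 ratios overlapped between the ages (two-sided exact permutation p = 0.1 each, the smallest that 3 against 3 allows), while in the wild type the p was 0.6, 0.7 and 0.9 for actin, pyruvate carboxylase and Gapdh.

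Of 27022 probe sets tested, 366 (1.35%) passed an adjusted p of 0.05 between the knockout ages in limma's moderated test. They comprised 214 higher probe sets (0.792%, 169 genes) and 152 lower ones (0.563%, 124 genes). With the arrays centred on their medians the split was 249 higher and 112 lower. A change of at least 2-fold was reached by 19 higher and 4 lower probe sets, on the scale of log2(signal + 16), which understates the change of dim genes. The 3 arrays of either knockout age did not overlap for 213 of the 214 higher probe sets (9.94% of all tested had every 5-month array above every 3-month array) and for 151 of the 152 lower ones (10.9% the other way). In the wild type 0 passed in the same limma fit (1434 at an unadjusted p under 0.05, against 3994 in the knockout). The 214 higher probe sets had a median change of 0.48 in knockouts and 0.03 in wild-type mice, and the 152 lower ones had -0.59 and -0.17. The wild type moved in the same direction for 126 of the 214 and for 131 of the 152. Over all 12495 genes, at 1 probe set each, the wild-type change was above 0 for 6485. A test of the knockout change minus the wild-type change passed for 15 probe sets (0.0555%; 2107 at an unadjusted p under 0.05), 13 of them higher, and all 15 had also passed in the knockout.

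The number of calls rested on single arrays. It was 62, 104 and 211 without 3-month knockout replicates 1, 2 and 3, it was 65 and 140 without 5-month knockout replicates 1 and 2, and it was 656 without 5-month wild-type replicate 3. A fit to all 18 arrays of the series, whose 8-month knockouts correlate less well with each other (mean r 0.961 to 0.969 against 0.979 to 0.983 in the 4 groups used here), called 84. A fit with the 5-prime to 3-prime ratio as a covariate called 34, among them 29 of the 214 higher and 2 of the 152 lower probe sets. That fit takes its slope from the spread within the 4 groups, pooled over them. Since the ratios of the knockout ages do not overlap, its change between the ages rests on carrying that slope across the gap. None of the 366 turned sign in any of these fits.

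**Figure D1:**
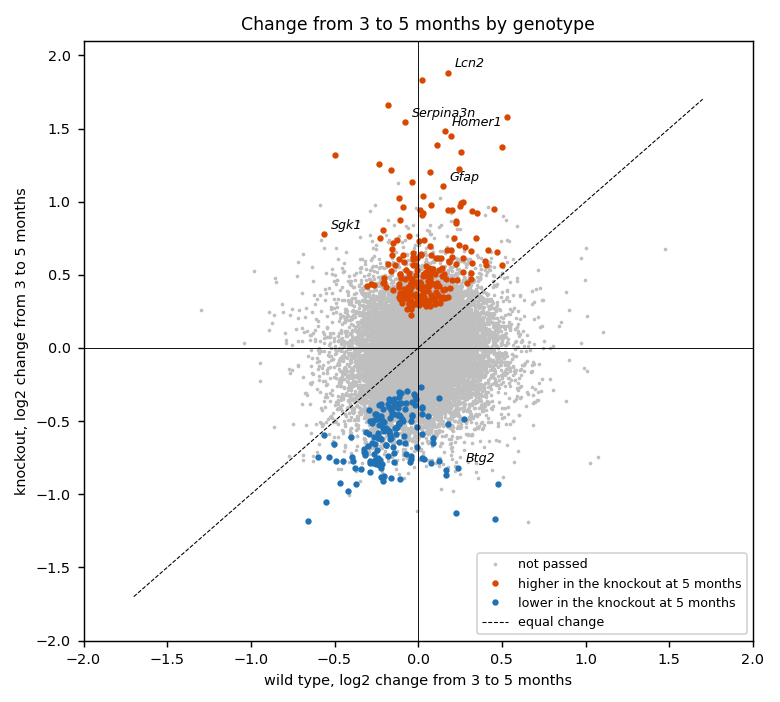
Each point is 1 of the 27022 tested probe sets, with its log2 change from 3 to 5 months in the wild type on the horizontal axis and in the knockout on the vertical axis; coloured points passed in the knockout (214 higher, 152 lower) and the dashed line marks an equal change. The higher points gather around a wild-type change near 0 (median 0.03), the lower ones around -0.17.

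Part of the astrocyte genes rose. The gene lists, this one included, were written with earlier results of these data known, so their counts are descriptions. Of 36 measured astrocyte genes, taken at 1 probe set each, 14 rose and 0 fell, where 1.13% of all 12495 genes rose and 0.168% fell in the same count. Their median change was 0.35, and -0.03 in wild-type mice, against 0.01 over all genes. The count was 6 with all 18 arrays, 5 with the ratio as covariate and 8 without 3-month knockout replicate 1 or 5-month knockout replicate 1 or 2. The median was 0.35 with all 18 arrays and 0.39 with the ratio.

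Gfap, the intermediate filament that defines reactive astrocytes, gave signals of 1796, 1823 and 1939 at 3 months and 4333, 4007 and 3692 at 5 months at its brightest probe set. The wild-type arrays read 606 to 737, so the 3-month knockouts were already above all of them and the 5-month knockouts were higher again. The change was 1.11 ± 0.07 on the log2 scale (± standard error, here and below; adjusted p 1.23e-07), and it was 1.22 ± 0.09 where Gfap changed most. One more Gfap probe set also rose, by 0.94 ± 0.16. Vim, another intermediate filament of the same cells, rose by 0.92 ± 0.11 from 965, 1069.7 and 782 to 1941, 1886 and 1531. The water channel Aqp4 rose by 0.53 ± 0.09, the hyaluronan receptor Cd44 by 0.92 ± 0.18, and the urea transporter Slc14a1 by 0.55 ± 0.13. Among genes that astrocytes also express at rest, Aldh1l1 changed by 0.24 ± 0.10, the glutamate transporter Slc1a2 by 0.23 ± 0.06 and the gap junction gene Gja1 by 0.12 ± 0.07, none of which passed. The glutamate transporter gene Slc1a3 and the calcium-binding protein gene S100b, named after their values were seen, rose at 1 probe set each (0.33 and 0.42) and did not pass at their brightest one (0.20 and 0.24).

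Secreted acute-phase genes and their signalling genes rose as well. Serpina3n, a protease inhibitor of reactive astrocytes, read 310.5, 299 and 304 at 3 months and 1041, 1030.4 and 719 at 5 months, against 47.6 to 87.4 in the wild type. It rose by 1.54 ± 0.16 (2.91-fold, adjusted p 4.85e-05), with replicate 3 the lowest of the 5-month arrays. A2m, the broad protease inhibitor alpha-2-macroglobulin, read 209, 232 and 259 and then 454, 504 and 511, a rise of 1.02 ± 0.12. Lcn2, an iron-siderophore carrier of the acute phase, differed from these. It read 28.7, 22.5 and 31.5 at 3 months, inside the wild-type range (0.738 to 39.6), and 191, 138 and 112 at 5 months, a rise of 1.88 ± 0.36. That was the largest change of any named gene, with an adjusted p of 0.0173. Osmr, a receptor subunit for oncostatin M, rose by 0.97 ± 0.18 from 82.6, 89 and 79.9 to 242, 168 and 142. Stat3, the transcription factor that such receptors activate, rose by 0.47 ± 0.09. Cebpd, a transcription factor of the acute phase, rose by 0.77 ± 0.17. In all, 6 of 21 genes of the JAK-STAT3 and acute-phase list rose and 0 fell (median 0.24, wild type -0.01). The count was 1 with all 18 arrays, 3 with the ratio as covariate and 2 without 3-month knockout replicate 1 or 5-month knockout replicate 1 or 2.

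**Figure D2:**
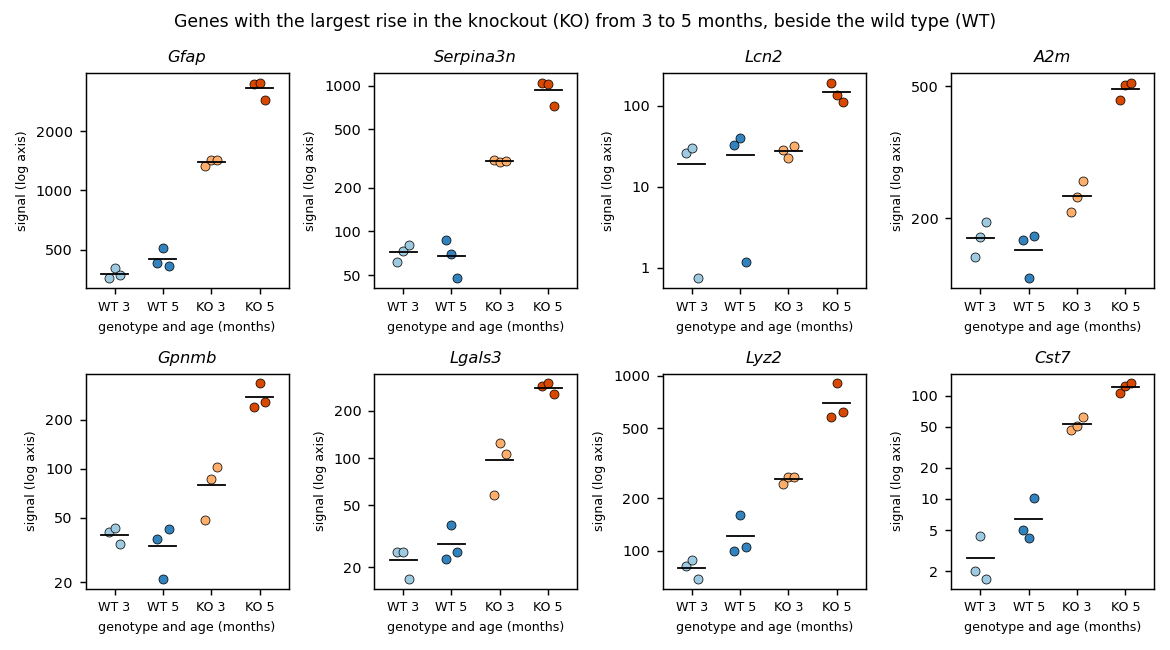
Signal (log axis) of 8 genes on each of the 3 arrays of the wild type (WT) and knockout (KO) at 3 and 5 months, each at the probe set that changed most; bars are means. In Gfap, Serpina3n, A2m, Gpnmb, Lgals3, Lyz2 and Cst7 every 3-month knockout array lies above every wild-type array and every 5-month array lies higher again, while Lcn2 leaves the wild-type range only at 5 months.

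The promoter of Gfap is shown because its gene had the smallest p of the comparison and its letters hold a match to a STAT motif. Binding of STAT proteins was not tested. RefSeq places it on the minus strand at chr11:102897151-102897450 of GRCm38.p6, from 250 bases before to 50 after the gene's start, and capitals mark the match to TTCNNNGAA, a palindromic STAT motif.
Gfap promoter: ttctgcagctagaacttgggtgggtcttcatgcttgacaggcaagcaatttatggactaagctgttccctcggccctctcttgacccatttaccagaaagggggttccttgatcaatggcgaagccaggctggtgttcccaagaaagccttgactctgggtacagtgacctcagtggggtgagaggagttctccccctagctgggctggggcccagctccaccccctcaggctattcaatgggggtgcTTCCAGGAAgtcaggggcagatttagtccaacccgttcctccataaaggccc
Promoters of this kind were at hand for 138 of the 169 higher genes (181 promoters, since a gene can have several starts) and 105 of the 124 lower genes (151 promoters). The STAT motif stood in 6.08% of the promoters of higher genes, 4.64% of those of lower genes and 6.55% of those of all genes tested. The AP-1 motif TGANTCA stood in 6.63%, 3.31% and 5.03% of the same sets, the interferon-stimulated response element in 3.31%, 1.99% and 2.93%, and the PU.1 motif GAGGAAGT in 1.66%, 0.662% and 2.65%. The E-box CACGTG, which TFEB among others reads, stood in 9.94%, 5.96% and 9.65%. The NF-kB consensus stood in none of the called sets and in 0.176% of the promoters of tested genes. Both strands were searched, and a match is a description of the letters in this window only.

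Microglial genes were counted by state. Of 27 measured genes of disease-associated microglia, the state that microglia take around damaged tissue, 9 rose and 0 fell (median 0.35, wild type 0.05). All 3 knockout arrays lay above all 6 wild-type arrays for 19 of the 27 at 3 months and for 26 at 5 months, against 5.22% and 8.35% of all genes. Of 19 genes of homeostatic microglia 0 rose and 0 fell in the limma fit (median -0.01). At an unadjusted p under 0.05 there were 4 of the 19, against 1756 of all 12495 genes. The 19 include the fractalkine receptor Cx3cr1 (-0.01 ± 0.20) and the growth factor receptor Csf1r (0.12 ± 0.06). Of the disease-associated genes 6 passed with the ratio as covariate, 3 with all 18 arrays, and 6 to 12 with each array left out. Among 32 further microglia and macrophage genes 4 rose and 0 fell (median 0.22, wild type 0.07), with 2 to 6 of them when each array was left out.

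Gpnmb, a transmembrane glycoprotein of lipid-laden macrophages, read 48.3, 87 and 102 at 3 months and 239.9, 336 and 258 at 5 months, a rise of 1.66 ± 0.21 (3.16-fold). Replicate 1 was the lowest of the 3-month arrays, at 48.3, near the highest wild-type array (42.9). Lgals3, the carbohydrate-binding galectin-3, read 58.4, 125 and 106 and then 288, 300.4 and 256, a rise of 1.45 ± 0.20 with the same array lowest. The lysozyme gene Lyz2 read 242, 263 and 264 and then 585, 906 and 618, a rise of 1.38 ± 0.15. Lyz1, whose sequence is so close to that of Lyz2 that the probe sets may share signal, rose by 1.58 ± 0.22. Cst7, a cysteine protease inhibitor of activated microglia, was close to background in the wild type (1.68 to 10.1) and rose by 0.99 ± 0.21 from 46.7, 50.7 and 62 to 106, 125 and 132.

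Signalling and receptor genes of microglia and macrophages rose too. Tyrobp, the signalling adaptor shared by many microglial receptors, rose by 0.61 ± 0.09, and Fcer1g, an adaptor of Fc receptors, by 0.52 ± 0.13. In the wild type Tyrobp changed by 0.27 ± 0.09 without passing. Fcer1g was near the threshold (limma, adjusted p 0.0491) and lost it in 16 of 27 other fits. Mpeg1, which encodes a pore-forming protein of macrophages, rose by 0.65 ± 0.10. Fcgr2b, the inhibitory Fc receptor, rose by 1.00 ± 0.17 at 1 of its 4 tested probe sets. Its brightest probe set changed by 0.12 ± 0.17 with overlapping ages, and the other two, at 0.75 ± 0.23 and 0.65 ± 0.23, did not pass either. Ms4a7 rose by 1.20 ± 0.27 but was dim, at 39.8, 27.1 and 17.7 and then 69.8, 114 and 72.1. S100a4, a calcium-binding protein found in infiltrating cells and reactive glia, rose by 1.32 ± 0.26 from 23.9, 31.3 and 25.3 to 109, 96 and 70.5.

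Complement and interferon genes are given next to each other. The 3 genes of the initiating C1q complex rose alike, C1qa by 0.47 ± 0.11, C1qb by 0.41 ± 0.09 and C1qc by 0.47 ± 0.10, and they were 3 of 9 complement genes measured (median 0.38). The complement list, like the others, leaves out probe sets annotated with several gene symbols. The wild-type median of this list was 0.19, the C1q genes changed there by 0.31 ± 0.11, 0.19 ± 0.09 and 0.23 ± 0.10 without passing, and in the knockout none of the 9 passed with all 18 arrays, without any 3-month knockout array, or without 5-month knockout replicate 1 or 2 (1 passed without replicate 3). Of 36 interferon response genes 0 rose and 0 fell in the limma fit (median 0.07, wild type 0.10), and none passed in any other fit tried. At an unadjusted p under 0.05 there were 4 of the 36, against 1756 of all 12495 genes. All 3 knockout arrays lay above all 6 wild-type arrays for 31 of the 36 at 3 months and for 29 at 5 months, against the same 5.22% and 8.35% of all genes. The membrane protein gene Ifitm3, named here after its values were seen as the brightest of the list, averaged 803 and then 864 in the knockout, against 319.8 and 317 in the wild type. Of 16 antigen presentation genes Ctss alone rose, and of 13 chemokine and cytokine genes Il33 alone, an alarmin of glial nuclei, by 0.60 ± 0.09 (wild type 0.40 ± 0.09).

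Lysosomal genes rose in part. Of 64 measured, 7 rose and 0 fell (median 0.10, wild type 0.01). Ctsd, the main aspartic protease of the lysosome, read 1342, 1390.4 and 1427 at 3 months and 1924, 2150.1 and 2012 at 5 months, a rise of 0.54 ± 0.06, against 883 to 986 in the wild type. Ctss, a cysteine protease of microglia that serves antigen processing, rose by 0.51 ± 0.08, Hexa, a subunit of the ganglioside-degrading hexosaminidase, by 0.43 ± 0.07 and Cd68, a lysosomal glycoprotein of macrophages, by 0.75 ± 0.13. Their knockout ages did not overlap, and the 3-month knockouts were already above all wild-type arrays. The protease gene Ctsb (0.28 ± 0.06), the membrane protein gene Lamp1 (0.30 ± 0.06) and the progranulin gene Grn (0.31 ± 0.07) rose less. The count was 2 with all 18 arrays and with the ratio as covariate, 1 and 4 without 3-month knockout replicates 1 and 2, and 3 and 4 without 5-month knockout replicates 1 and 2. Of 21 lipid transport genes 3 rose, namely the lipid-carrying chaperone gene Clu (0.39 ± 0.06), the cholesterol exporter gene Abca1 (0.42 ± 0.08) and the apolipoprotein gene Apod (0.40 ± 0.09), and 1 passed in each of those fits with all 18 arrays, with the ratio, or without 3-month or 5-month knockout replicate 1 or 2, while 5 passed without 5-month wild-type replicate 3. Of 20 cholesterol biosynthesis genes 0 rose and 0 fell in the limma fit (median -0.15, wild type -0.03), and 2 fell with any probe set of a gene counted. At an unadjusted p under 0.05 there were 10 of the 20, against 1756 of all 12495 genes. The change was below 0 for 16 of the 20, against 5838 of all genes.

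A second set of higher genes started below the wild type. Among the 214 higher probe sets, 68 (31.8%) had all 3 of the 3-month knockout arrays above all 6 wild-type arrays, and 45 (21.0%) had all 3 below them, against 4.61% and 3.99% of all probe sets tested. These shares are descriptions, since low values at 3 months help a probe set to pass. Of those 45, 14 had all 5-month knockout arrays within the wild-type range and 3 had all of them above it.

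Homer1, a scaffold gene of excitatory synapses, had the clearest such pattern. At 1 probe set it read 200.4, 258 and 238 at 3 months, below all wild-type arrays (464 to 754), and 651, 652 and 724 at 5 months, within them. The rise was 1.48 ± 0.12 (2.80-fold, adjusted p 2.7e-06). The other 5 tested Homer1 probe sets did not pass, and the brightest changed by 0.09 ± 0.07. Sgk1, a kinase gene induced by glucocorticoids and activity, read 994, 800.1 and 1006 and then 1696, 1910.4 and 1270.5, a rise of 0.78 ± 0.12, while its wild-type value changed by -0.56 ± 0.12 without passing. Neither of these passed with all 18 arrays (adjusted p 0.0745 for Homer1 and 0.113 for Sgk1). With the ratio as covariate Homer1 passed and Sgk1 did not (limma, adjusted p 0.361). Hspa5, the main chaperone of the endoplasmic reticulum, read 1741, 1688 and 1769 and then 2801, 2279.7 and 2948, a rise of 0.61 ± 0.10 from below the wild type (1921 to 2643). Calr, a calcium-binding chaperone of the same compartment, rose by 0.30 ± 0.06, and the cochaperone genes Dnajb5 and Dnajb1 by 0.49 ± 0.09 and 0.30 ± 0.07. These were the 4 of 32 heat shock and endoplasmic reticulum stress genes that rose (0 fell, median 0.23, wild type 0.04). None of the 32 passed with all 18 arrays, without 5-month knockout replicate 1 or with the ratio as covariate, where the median was 0.23, 0.23 and 0.26. The count was 1 without 3-month knockout replicate 1 or 2, 2 without 5-month knockout replicate 3 and 7 without 3-month wild-type replicate 1.

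Clock and immediate early genes held members of both kinds. Per2, a repressor of the circadian clock, rose by 0.91 ± 0.15 from 138, 99.8 and 117 to 253, 229 and 224, against 156 to 249 in the wild type. Its brightest other probe set changed by 0.12 ± 0.19 and did not pass. Bhlhe40, another clock repressor, rose by 0.52 ± 0.09, and Dbp, an output factor of the clock, fell by 0.29 ± 0.07, so that 2 of 21 clock genes rose and 1 fell (median 0.05). With all 18 arrays Per2 and Bhlhe40 passed and Dbp did not. With the ratio as covariate Dbp passed and the other 2 did not, with a change of 0.56 for Per2. Egr1, a transcription factor gene induced by activity, rose by 0.57 ± 0.11 from 1553, 1498 and 1628, and Fosl2, an AP-1 subunit, by 0.88 ± 0.18. Btg2, an antiproliferative immediate early gene, went the other way: it read 296, 241 and 249 at 3 months and 141, 153 and 129.6 at 5 months, a fall of 0.82 ± 0.13 that left it above all wild-type arrays (76.2 to 122). In all, 4 of 35 immediate early genes rose and 1 fell (median 0.16, wild type -0.06). With all 18 arrays or with the ratio as covariate 0 rose, and the count was 2 without 3-month knockout replicate 1 and 1 without 3-month knockout replicate 2 or 5-month knockout replicate 1 or 2. The hour of tissue collection is not given in the labels.

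The metallothioneins, small metal-binding proteins of astrocytes, all rose. Mt1 read 4304, 3997 and 4172 at 3 months and 6700.3, 6466 and 6277 at 5 months, a rise of 0.64 ± 0.07, and Mt2 read 2124, 1849 and 2145 and then 3343, 3277 and 2908, a rise of 0.64 ± 0.08. All 3 of the 3-month knockout arrays lay below the wild-type range of Mt2 (2210.2 to 2723), and all 3 of the 5-month arrays lay above the range of both genes. Mt3, the brain-enriched member, rose by 0.34 ± 0.06 to within its wild-type range (2519 to 3013). None of the 3 passed with all 18 arrays (adjusted p 0.0548, 0.140 and 0.0548 for Mt1, Mt2 and Mt3), and Mt1 alone passed with the ratio as covariate. These 3 were the only ones of 31 oxidative and metal stress genes to rise, and 0 fell (median 0.08). Glucocorticoid response genes, a list that shares Mt1, Mt2, Sgk1, Lcn2 and others with those above, rose in 8 of 28 cases and fell in 0 (median 0.28, wild type -0.06). With all 18 arrays 0 of them rose, and with the ratio as covariate the count was 2 with a median of 0.11. It was 3 without 3-month or 5-month knockout replicate 1 or 2, and 4 without 3-month knockout replicate 3. The promoters of Mt1 and Mt2, neighbours on the plus strand at chr8:94178839-94179138 and chr8:94172368-94172667 of GRCm38.p6 (RefSeq), are shown because the genes moved alike; capitals mark matches on either strand to TGCACNC and TGCGCNC, forms of the metal response element core.
Mt1 promoter: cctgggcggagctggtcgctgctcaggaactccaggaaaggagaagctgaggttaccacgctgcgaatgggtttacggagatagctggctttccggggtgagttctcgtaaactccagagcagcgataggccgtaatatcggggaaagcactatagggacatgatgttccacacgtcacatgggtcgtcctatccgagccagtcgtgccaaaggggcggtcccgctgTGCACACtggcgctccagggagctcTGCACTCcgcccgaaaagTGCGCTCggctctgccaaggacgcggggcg
Mt2 promoter: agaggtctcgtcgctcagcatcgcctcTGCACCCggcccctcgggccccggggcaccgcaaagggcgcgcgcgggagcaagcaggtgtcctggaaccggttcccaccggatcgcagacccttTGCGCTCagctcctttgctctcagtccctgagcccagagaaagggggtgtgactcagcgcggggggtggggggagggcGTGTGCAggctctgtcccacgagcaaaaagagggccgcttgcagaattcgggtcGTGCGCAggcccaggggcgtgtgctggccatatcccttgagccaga
Mt1 had 3 matches and Mt2 had 4. The letters are common: TGCACNC stood in 14.4% of the promoters of higher genes and 13.3% of those of all genes tested, and TGCGCNC in 19.9% and 26.7%.

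**Figure D3:**
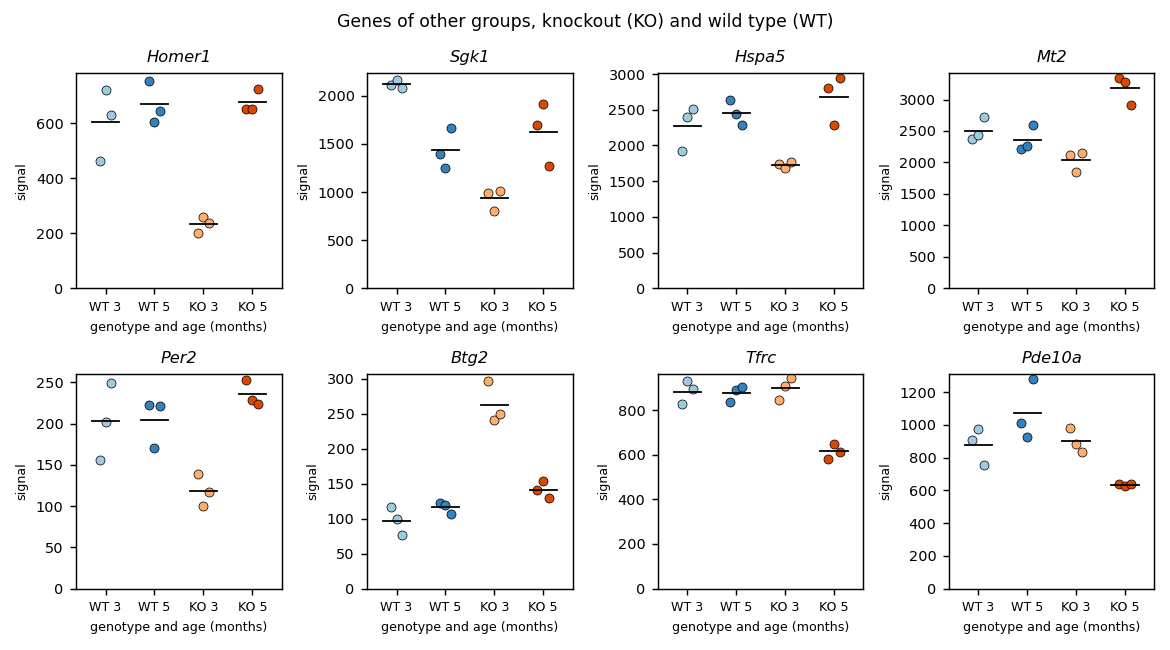
Signal (linear axis from 0) of 8 genes on each of the 3 arrays of the wild type (WT) and knockout (KO) at 3 and 5 months; bars are means. Homer1, Sgk1, Hspa5, Mt2 and Per2 lie below the wild type at 3 months in the knockout and rise by 5 months, Btg2 falls towards the wild type, and Tfrc and Pde10a fall below it.

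Neuronal and other lists had few members that passed. Of 32 excitatory neuron genes, 27 GABAergic genes, 33 presynaptic and 30 postsynaptic genes 0 rose and 0 fell in the limma fit at 1 probe set per gene, with medians of -0.02, -0.07, 0.04 and 0.03 and with 7, 6, 3 and 8 at an unadjusted p under 0.05. With any tested probe set of a gene counted, 1 GABAergic and 2 presynaptic genes had one that fell and 1 postsynaptic gene had one that rose. The synaptic vesicle fusion gene Snap25 changed by 0.04 ± 0.06 and the GABA synthesis gene Gad1 by -0.02 ± 0.07. The other neuronal markers, Slc17a7, Nefl and Rbfox3, changed by -0.04 ± 0.07, -0.11 ± 0.09 and -0.13 ± 0.07, and none of them passed. Of 54 respiratory chain genes 0 passed in limma (median -0.02, 6 at an unadjusted p under 0.05). Of 31 endothelial, 31 meningeal and 24 cerebellar genes 0 passed as well, with medians of -0.08, 0.02 and -0.06. Of these, 11, 4 and 5 were at an unadjusted p under 0.05, in that order. Over all genes 1756 of 12495 were at that unadjusted p. That is a smaller share than among the endothelial, cerebellar, excitatory neuron, GABAergic and postsynaptic genes. It is a larger share than among the presynaptic, respiratory chain and meningeal genes. Of the 31 endothelial genes, 19 had a change below 0 and 12 a change above 0. With any probe set counted, 1 endothelial gene had one that rose and 2 had one that fell. Scg3, a granin of secretory granules, rose by 0.27 ± 0.06 as the 1 of 32 neuropeptide and granin genes that passed. Sox10, a transcription factor of oligodendrocytes, rose by 0.58 ± 0.12 as the 1 of 30 in its list (median 0.13). Its brightest other probe set changed by 0.17 ± 0.21. The cell cycle inhibitor gene Cdkn1a rose by 0.68 ± 0.16 as the 1 of 18 cell cycle genes. Scg3, Sox10 and Cdkn1a did not pass with all 18 arrays or with the ratio as covariate. Over all genes 1.13% rose. In 3 regional lists 4 genes fell, none of which passed with the ratio as covariate. Prkcd, a protein kinase C of thalamic neurons, fell by 0.55 ± 0.12 from 316, 312 and 339.6 to 181, 223 and 249, below all wild-type arrays. Ramp3, a receptor-modifying protein of the thalamus, fell by 0.76 ± 0.14, and both belonged to a list of 26 thalamic and hypothalamic genes of which 0 rose (median -0.11). Pde10a, a phosphodiesterase of striatal neurons, fell by 0.49 ± 0.11 from 980.5, 885 and 833 to 638, 629 and 640.4, as the 1 of 23 striatal genes, and Clic6, an ion channel gene of the choroid plexus, fell by 0.40 ± 0.10 as the 1 of 25 in its list. With the ratio as covariate the change of Prkcd was -0.26, and with all 18 arrays Ramp3, Pde10a and Clic6 did not pass (adjusted p 0.147, 0.0829 and 0.0998).

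**Figure D4:**
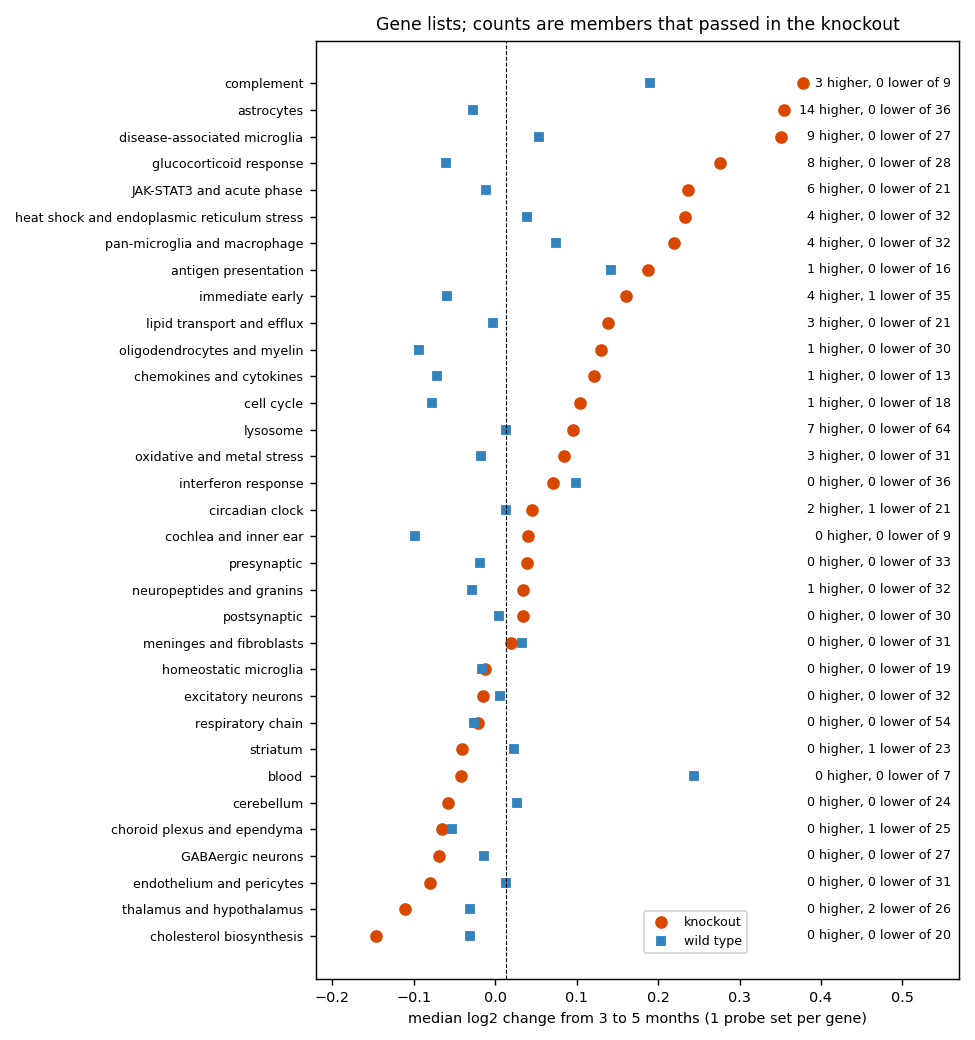
Median log2 change from 3 to 5 months of each gene list with at least 5 measured genes, in the knockout (circles) and the wild type (squares), with the number of members that passed in the knockout at the right; the dashed line is the knockout median over all genes (0.01). Complement, astrocyte and disease-associated microglia genes have the highest knockout medians (0.38, 0.35 and 0.35), and cholesterol biosynthesis genes the lowest (-0.15).

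The lower probe sets differed from the higher ones in what other probe sets of the same gene showed. For 115 of the 124 lower genes another probe set was tested, and the brightest other one had a median change of -0.03, against -0.60 at the called one. It passed as lower for 1 gene, and where it was brighter than the called one, in 103 genes, it passed for 0 (median -0.02). For 113 of the 169 higher genes the same measure gave 0.20 against 0.45, and the other probe set also passed for 19. The called probe set is the extreme one by choice, which by itself widens each gap.

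Norad, a long noncoding RNA that binds Pumilio proteins, read 1199, 1156 and 1103 at 3 months and 466, 665 and 688 at 5 months at the called probe set, a fall of 0.93 ± 0.17. Its brighter probe set changed by 0.06 ± 0.06. Ank2, a membrane anchor of the neuronal cytoskeleton, fell by 1.19 ± 0.27 at a dim probe set (47, 66.8 and 61, then 8.77, 25.3 and 17.4), while 2 bright ones changed by 0.24 ± 0.07 and 0.21 ± 0.06. Vamp1, a vesicle fusion protein of fast synapses, fell by 0.88 ± 0.16 and changed by 0.10 ± 0.08 at its brighter probe set. Atp6v0a1, a subunit of the proton pump that acidifies lysosomes, fell by 0.82 ± 0.18 and changed by 0.14 ± 0.07 in the same way. Lin7c, a synaptic scaffold gene, fell at 2 of its 4 probe sets, both dimmer than the ones that did not pass. Others of the 15 lower genes with the largest change were Sh3pxd2b, Ankrd45, Uhmk1, Wdr47, Tmx4, Brcc3, Pla2g4e, Armc6 and Gtf3c1, at -1.17 to -0.82. Crybb1, a crystallin that microglia also express, completed them: all 5-month knockout arrays were at background, so that it was at least 2.67-fold lower than at 3 months.

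Array quality values ran beside these. The 5-month knockout replicate 1, with the lowest ratios in the knockout, was below both other arrays of its group for 115 of the 152 lower probe sets (75.7%), against 35.3% of all tested; these same values helped to choose the lower probe sets, so the count is a description only. The 5-month wild-type replicate 3, with the lowest ratios in the wild type (0.412 for actin), was below both other arrays of its group for 116 of them (76.3%), against 34.9% of all tested probe sets. For the 214 higher probe sets that wild-type array was above both others in 36.0%, against 35.4% of all. With the ratio as covariate the median change was -0.32 for the lower and 0.45 for the higher probe sets. Whether RNA quality accounts for the lower probe sets was not tested.

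**Figure D5:**
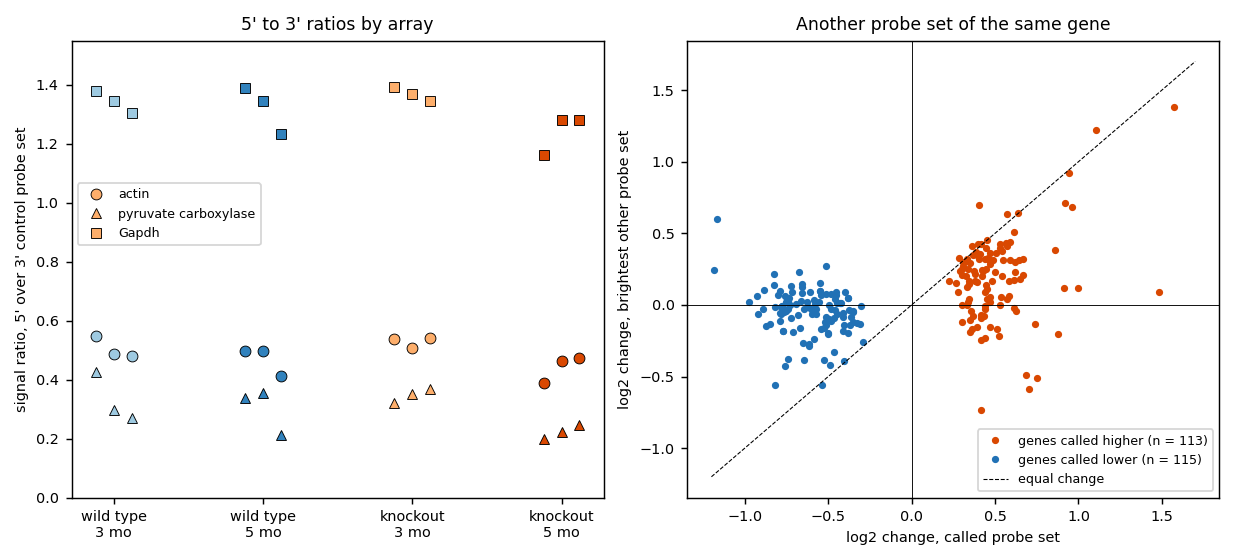
Left, signal ratio of the 5-prime over the 3-prime control probe set for 3 genes on each array, by genotype and age; the 5-month knockouts lie below the 3-month ones for all 3 genes. Right, log2 change in the knockout at the called probe set against that at the brightest other probe set of the same gene. Genes called higher (113) lie mostly above 0 at the other probe set (87 of them, against 6657 of all 12495 genes), while genes called lower (115) lie around 0.

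The transferrin receptor gene was among the lower genes whose other probe sets moved the same way. Over all 12495 genes, at 1 probe set each, 5838 had a change below 0. Of the 115 lower genes with another tested probe set, 71 had the brightest other one below 0, and its median change over all 115 was -0.03. It changed by -0.42 ± 0.10 for Pde10a, which passed, and by -0.39 ± 0.16 for Clic6 and -0.56 ± 0.21 for Btg2, which did not. Tfrc, the receptor for iron uptake, read 844, 907 and 946 at 3 months, within or just above the wild-type range (825 to 928), and 580.1, 650.0 and 614 at 5 months, below all of it. The fall was 0.54 ± 0.06 (adjusted p 0.000185), its 2 dimmer probe sets changed by -0.56 ± 0.16 and -0.57 ± 0.20 without passing, and the wild type changed by -0.01 ± 0.06. Tfrc and Btg2 were the 2 lower probe sets among the 15 that passed in the test of the knockout change against the wild-type change. The 13 higher ones included Serpina3n, Gfap at 2 probe sets, A2m, Gpnmb, Homer1 and Sgk1. That test rests on few arrays: it called 9 and 8 without 3-month knockout replicates 1 and 2, 7 and 9 without 5-month knockout replicates 1 and 2, and 0 with all 18 arrays. In that test Tfrc lost the threshold in 15 of 26 other fits and Btg2 in 13 of 26. Across the single genes, Gfap at both named probe sets, Serpina3n, Lgals3, Lyz2 and Ctsd passed between the knockout ages in every fit tried that included their probe sets. Of the 68 named probe sets that passed, 21 also did so with all 18 arrays and 16 with the ratio as covariate.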

How the data were processed

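Total RNA of 12 of the series' 18 samples, on 1 Affymetrix mouse array each, was compared by genotype and age; replicates were numbered in the order of the sample records. The table deposited by the authors holds 1 linear intensity per probe set and array; the software behind it is not given in the sources used here. After trimming 2% at either end, each array's mean signal was 150.001, so the arrays already share a scale and no further normalization was applied; 0 pairs of arrays held the same values.

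Values were taken as log2(signal + 16). Control probe sets (64) and the dimmest 40% by mean were dropped, and 27022 remained, of which 22963 had 1 gene symbol in the platform annotation, 570 several and 3489 none; 22905 of the 22963 matched RefSeq (GRCm38.p6) by Entrez identifier. A model with genotype by age groups and an additive sex term was fitted with limma 3.58.1 in R 4.3.3 (lmFit, eBayes with a variance trend), with two-sided p-values adjusted by Benjamini-Hochberg over all tested probe sets at 0.05. Errors after log2 changes are standard errors. Background was the 95th percentile of 27 bacterial control probe sets. A bound of "at least N-fold" puts the brighter group against dim arrays raised to at least that background.

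Gene lists are described at the brightest probe set of each gene (12495 genes). Named genes were Ppt1, up to 15 higher and 15 lower with the largest change that passed, at most 4 passing members of each list by p, up to 5 each way in the difference between genotypes, and cell type markers. Other list members that rose, and Ifitm3, were named after their values were seen. Members and lists were chosen with earlier results of these data known. The forms of the metal response element, the fit without the 8-month knockouts and the fit with the 5-prime to 3-prime ratio were chosen after seeing the data. The model was tested on simulated data.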

Additional observations from a re-analysis of the deposited data

Results flagged for a closer look

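A difference between the knockout change and the wild-type change from 3 to 5 months passed for 15 probe sets (limma, adjusted p under 0.05), and each is given here as that difference on the log2 scale. Among reactive astrocyte genes the difference was 0.96 and 0.98 at the Gfap probe sets, 1.62 for Serpina3n, 1.14 for A2m and 0.77 for Vim, with wild-type changes of 0.15 ± 0.07, 0.24 ± 0.09, -0.08 ± 0.16, -0.12 ± 0.12 and 0.18 ± 0.08 in that order. It was 0.79 for Mt1 and 0.73 for Mt2, and all 5-month knockout arrays of both lay above all 6 wild-type arrays. A probe set annotated with several gene symbols, left unnamed and counted in no list, had a difference of 1.09. It read 692, 690 and 741 and then 2124, 1887 and 1496 in the knockout, a rise of 1.34 ± 0.12. The wild-type arrays read 128 to 186.

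Among genes of phagocytes and membranes it was 1.84 for Gpnmb, 0.59 for Cd9, a tetraspanin gene of activated microglia and myelin, and 0.72 for Add3, a gene of the membrane skeleton. Add3 read 1143, 958 and 1049.6 and then 1524, 1371 and 1388 in the knockout and changed by -0.28 ± 0.08 in the wild type. Cd9 read 746, 736 and 770.2 and then 1088, 1079.9 and 997, against 368 to 456 in the wild type.

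In Homer1, Sgk1 and Mt2 the knockout rose from below the wild type. The difference was 1.33 for Homer1, at 1 of its 6 tested probe sets, and it was 1.34 for Sgk1, whose wild-type arrays read 2111, 2167 and 2082 at 3 months and 1399, 1253 and 1662 at 5 months. Tfrc had a difference of -0.53 and Btg2 of -1.06.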

How the results depend on the processing

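No paired analysis was possible because the labels carry no replicate numbers shared between groups. The 366 calls became 84 with all 18 arrays, 609 with only the 6 knockout arrays, 167 with no filter on dim probe sets, 34 without the variance trend, 657 with array weights, 201 with 1 probe set per gene and 34 with the 5-prime to 3-prime ratio as covariate, and leaving out each array in turn gave 62 to 656. In the wild type, where 0 passed, leaving out each array gave 0 to 2 (2 without 3-month wild-type replicate 1, 1 without 5-month wild-type replicate 1). The 15 calls of the difference became 0 with all 18 arrays, 23 with median centring, 28 with a pseudocount of 64, 31 without the sex term, 0 without the variance trend, 28 with array weights, 25 with 1 probe set per gene, 26 without the 8-month knockouts and 7 with the ratio as covariate, and 7 to 22 with each array left out. The 60 list genes that passed became 14 with all 18 arrays, 39 with no filter, 13 without the trend and 16 with the ratio as covariate, and 24 to 84 with each array left out (24 without 3-month knockout replicate 1 or 5-month knockout replicate 1). The Ppt1 change of 0.09, which did not pass, turned to -0.0055 with a pseudocount of 1, to -0.062 with array weights, to -0.026 with the ratio as covariate, and lay between -0.15 and 0.40 with each array left out. The cause of these differences was not tested. Over the named genes, 1360 single results kept their direction and side of the threshold, 441 lost the threshold and 0 turned, and of 181 for the difference genes 133 kept it and 48 lost it. The number of arrays, 3 in a group, limits the precision.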
